A study of Homo sapiens with 2 samples.

Results

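The genes described here build the machinery that segregates chromosomes and divides the cell. They were chosen by name, as 56 genes of the centromere, the spindle checkpoint, the mitotic kinases and kinesins, condensin and cytokinesis. The rule uses names and no measured value, but the names were put together with earlier results of these data known. They were read by 110 probe sets of 54613, and the array named 19775 genes in all. A probe set is a group of short probes on the Affymetrix Human Genome U133 Plus 2.0 array that together measure 1 transcript. U87, an established human glioblastoma cell line, was transfected with HOXD9 siRNA-2 or with a non-silencing control siRNA, each at 50 nM with the same lipid reagent, and RNA was taken on Day 2. The knockdown is transient, in 1 cell line and with 1 of the 2 HOXD9 siRNAs of the study. With 1 array per condition no test, SD or p-value can be given, and every ratio below compares 2 arrays.

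In a dividing cell, CDK1 bound to cyclin A or cyclin B drives entry into mitosis. Kinetochores form on CENP-A chromatin and attach chromosomes to microtubules through the NDC80 complex, and the checkpoint kinases and MAD2 hold back the anaphase-promoting complex (APC/C) until all chromosomes are attached. Motor proteins of the kinesin family shape the spindle, the chromosomal passenger complex corrects attachments and steers cytokinesis, and condensin compacts the chromosomes. Most of these mRNAs accumulate in G2 and M phase and are low in resting cells. Much of this timing is encoded near the transcription start by the cell cycle genes homology region (CHR, letters TTTGAA) and by CCAAT boxes, which bind the MuvB complexes and NF-Y.

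The promoters of 46 of the 56 genes were found in a RefSeq table (GRCh38.p14) of the 250 bases before and 50 after each gene start. Searched on both strands, TTTGAA was present in 33 of the 46, or 71.7%, against 15.4% of 27305 promoters of the same length and 10.2% of the 9519 whose gene passed the signal filter below. CCAAT was present in 34, or 73.9%, against 35.7% and 37.0%, and both motifs in 25, or 54.3%, against 6.08% and 4.23%. The 5 upstream stretches below are those of the genes with the 3 lowest and the 2 highest log2 ratios among these 46, taken as the median over the probe sets of a gene. In the window searched, HMMR, the gene with the highest ratio, holds both motifs more than once. CDC25C, among the lowest, holds neither in its window, and a match farther from this start or at another start would not be seen. Each is the 250 bases before the start, 5′ to 3′ on the strand of the gene, with TTTGAA or CCAAT, or its reverse complement, in capitals.
CDC25C (chr5:138338356-138338605, minus strand): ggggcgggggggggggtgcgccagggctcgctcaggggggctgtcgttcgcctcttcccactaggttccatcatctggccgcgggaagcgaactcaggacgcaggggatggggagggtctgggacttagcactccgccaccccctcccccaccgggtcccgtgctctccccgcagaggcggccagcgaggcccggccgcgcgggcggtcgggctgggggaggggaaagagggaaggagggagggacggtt
NCAPH (chr2:96335516-96335765, plus strand): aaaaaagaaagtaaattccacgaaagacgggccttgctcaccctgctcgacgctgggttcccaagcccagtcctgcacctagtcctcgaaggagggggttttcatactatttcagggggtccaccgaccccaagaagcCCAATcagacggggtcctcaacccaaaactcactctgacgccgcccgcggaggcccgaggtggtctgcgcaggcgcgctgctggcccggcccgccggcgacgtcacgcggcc
CCNB1 (chr5:69166900-69167149, plus strand): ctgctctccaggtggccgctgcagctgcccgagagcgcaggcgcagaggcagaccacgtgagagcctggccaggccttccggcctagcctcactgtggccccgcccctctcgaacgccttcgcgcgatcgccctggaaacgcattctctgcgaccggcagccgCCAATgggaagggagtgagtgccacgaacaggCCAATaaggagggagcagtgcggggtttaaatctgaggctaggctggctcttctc
HMMR (chr5:163460382-163460631, plus strand): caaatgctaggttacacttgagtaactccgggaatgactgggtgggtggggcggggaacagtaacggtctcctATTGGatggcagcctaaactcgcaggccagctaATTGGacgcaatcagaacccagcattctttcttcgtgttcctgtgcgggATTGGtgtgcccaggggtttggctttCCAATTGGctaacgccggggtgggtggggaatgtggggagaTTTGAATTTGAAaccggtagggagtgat
AURKB (chr17:8210226-8210475, minus strand): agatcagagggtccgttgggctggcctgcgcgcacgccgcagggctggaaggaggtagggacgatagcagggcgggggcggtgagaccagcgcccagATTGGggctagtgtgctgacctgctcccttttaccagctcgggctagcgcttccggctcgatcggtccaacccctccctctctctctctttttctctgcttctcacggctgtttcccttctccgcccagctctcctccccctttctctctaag
HMMR has 2 adjoining TTTGAA matches and 5 CCAAT matches, of which 2 on opposite strands overlap. CCNB1 has 2 CCAAT matches, NCAPH and AURKB 1 each, and none of the 5 genes has a match in the 50 bases after the start. A match is only a run of letters and was not tested for binding. The median log2 ratio was -0.41 in the 33 genes with TTTGAA in the window and -0.39 in the 13 without it. It was -0.40 in the 34 genes with CCAAT in the window and -0.55 in the 12 without it. Genes counted as without a motif may hold it outside the window, so these medians do not show whether the motifs go with the ratio.

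The median signal differed between the arrays. It was 18.3 on the HOXD9 siRNA array and 22.5 on the control siRNA array, so that centering each array on its median adds 0.30 to every log2 ratio. The 3 GAPDH probe sets read nearly equal as deposited, with log2 ratios of -0.03 to -0.02, and 0.27 to 0.28 after centering. Ratios are given as deposited, and the counts and medians also after centering. Each gene was read from its brightest probe set among those whose mean signal reached 19.8, the median of all. HOXD9 itself was dim, with signals of 5.58 and 11.4 on its probe sets in HOXD9 siRNA-2-transfected cells and of 19.7 and 9.33 in control siRNA-transfected cells. The control transcripts of Bacillus subtilis, taken as background, reached 18.4, so HOXD9 was at least 1.07-fold lower on 1 probe set and within background on the other. After centering the first bound was below 1, and the silencing of the target could not be bounded on these arrays. The study itself reports silencing of HOXD9 in U87 cells by qRT-PCR on Day 2, a measurement apart from these arrays. The 6 genes listed as markers of U87 glioblastoma cells were VIM, CD44, FN1, TNC, SPARC and NES. All but NES gave signals of 1753 or more on both arrays. NES passed the filter but was much dimmer, with 70.6 with HOXD9 siRNA-2 and 116 with control siRNA (log2 ratio -0.72). The list thus did not read high as a whole. Of 5 blood, epithelial and melanocyte markers with a probe set, EPCAM alone passed the filter, with 23.8 with HOXD9 siRNA-2 and 28.2 with control siRNA.

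All 56 genes passed the signal filter, and their brightest probe sets lay above the background on both arrays. The lowest signals among these were those of INCENP, 43.2 with HOXD9 siRNA-2 and 52.2 with control siRNA. None of the 56 differed by more than 2-fold in either direction, against 4.95% of 11624 genes that were lower and 0.516% that were higher by this measure. Among 9381 genes with a mean signal in the range of these 56, 3.10% were lower and 0.0426% higher. With each array centered on its median, again none of the 56 was past 2-fold, against 2.31% lower and 1.17% higher among all genes. Their median log2 ratio was -0.39, against -0.25 for all genes, and they spanned -0.89 to 0.21. Their quartiles were -0.53 and -0.26, a width of 0.27, against 0.41 for all genes, which include dimmer ones. The 9381 genes with a mean signal in the range of these 56 had quartiles of -0.45 and -0.09. In bulk RNA, fewer cells in mitosis and less of these mRNAs per cell cannot be told apart.

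**Figure D1:**
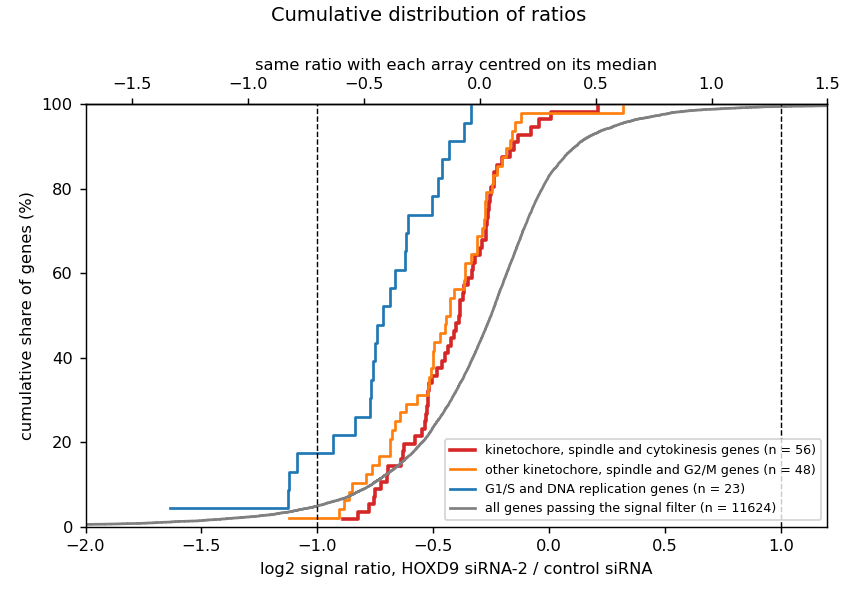
Cumulative share of genes (y axis, %) at or below each log2 ratio of the HOXD9 siRNA-2 signal to the control siRNA signal (x axis), with the ratio after centering on the upper axis. The 56 genes lie left of all genes around the middle of the curve, with medians of -0.39 and -0.25, do not cross the dashed 2-fold lines, and lie right of the G1/S and DNA replication genes.

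The lower signal of these genes depended on how much of the overall shift is subtracted. As deposited, 54 of the 56 read lower with HOXD9 siRNA-2, but so did 83.2% of all genes. Of the 9381 genes with a mean signal in the range of these 56, 86.0% did. With each array centered on its median, 36 of the 56 were below 0, against 43.7% of all genes, and the median was -0.09, against 0.05. The median signal of the HOXD9 siRNA array, 18.3, lay just under the background of 18.4, so centering follows dim probe sets. After quantile normalization, and also after loess, 42 of the 56 were below 0. The medians of all genes were then 0.03 and 0.02, and the share of all genes below 0 was not taken. Relative to the other genes the shift was steadier. Of the 56, 44 lay below the median of all genes and 12 above it, and the median lay 0.14 below that of all genes. That distance was between 0.12 and 0.16 under each alternative scaling, filter and probe set choice that was run. Not all of these could move it. Centering cannot change it, and dropping the filter or setting a floor left the median of the 56 at -0.39. Different bright probe sets of one gene, read on the same arrays, differed with a pooled SD of 0.24 over 3753 genes, which is not a replicate error. More than 1 such SD below the median of all genes lay 20 of the 56 genes, against 24.5% of all genes, and more than 1 SD above it lay 2, against 18.2%. The shares of all genes include dimmer genes, and with these the pooled SD between probe sets was 0.41. For the counts past 1 SD, a share among genes of like signal was not taken.

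At a milder threshold of 1.5-fold, 11 of the 56 genes were lower and none higher, against 17.8% and 1.63% of all genes. Among the 9381 genes with a mean signal in the range of these 56, 15.1% were lower. With 11 of 56 near these shares, the count does not set these genes apart. After centering, UBE2C alone was lower by more than 1.5-fold, against 6.74% of all genes and 4.58% of the 9381. The 11 genes came from 6 of the roles described below.

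UBE2C encodes the ubiquitin-conjugating enzyme that works with the APC/C, and it had the lowest ratio of the set. Its signal was 1316 with HOXD9 siRNA-2 and 2436 with control siRNA, 54.0% of the control, for a log2 ratio of -0.89 (-0.59 after centering). It was read by 1 probe set, so no second probe set checks it. The other genes of anaphase stood apart from it. CDC20, the APC/C activator, gave 935 with HOXD9 siRNA-2 and 1167 with control siRNA (log2 ratio -0.32), and separase, ESPL1, gave 333 with HOXD9 siRNA-2 and 409 with control siRNA on its brighter probe set, with -0.30 on both. Securin, PTTG1, gave 4156 with HOXD9 siRNA-2 and 4852 with control siRNA (-0.22). These 3 lay within 0.07 of the median of all genes. For the core of the APC/C, 13 subunits and coactivators passed the filter, with a median of -0.21. None of the 13 was lower by more than 2-fold, against 4.95% of all genes. The lowest was CDC23, at -0.98.

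The kinases and cyclins differed among themselves. CDC25C, the phosphatase that activates CDK1, gave 87.02 with HOXD9 siRNA-2 and 149 with control siRNA, a log2 ratio of -0.78, and its dimmer probe set gave 45.7 with HOXD9 siRNA-2 and 85.3 with control siRNA (-0.90). CDK1 gave 1460 with HOXD9 siRNA-2 and 2418 with control siRNA (-0.73), and its other 3 probe sets gave -0.95, -0.51 and -0.51. Both were lower on every probe set above the filter. The mitotic cyclins that bind CDK1 shared closely similar but smaller values on their brightest probe sets. CCNA2 gave 753 with HOXD9 siRNA-2 and 1018 with control siRNA (-0.44). CCNB2 gave 1481 with HOXD9 siRNA-2 and 1987 with control siRNA (-0.42). CCNB1 gave 2440 with HOXD9 siRNA-2 and 3190 with control siRNA (-0.39). The dimmer CCNB1 probe set read 230 with HOXD9 siRNA-2 and 536 with control siRNA, a log2 ratio of -1.22, and was past 2-fold as deposited but not after centering (-0.92). The 2 CCNB1 probe sets thus differed by 0.84. Aurora A, AURKA, gave 1628 with HOXD9 siRNA-2 and 1969 with control siRNA (-0.27), with -0.29 to -0.26 over its 3 probe sets. Polo-like kinase 1, PLK1, gave 687 with HOXD9 siRNA-2 and 724 with control siRNA (-0.08), close to equal as deposited and 0.22 after centering. FOXM1, the transcription factor that activates many of these genes, gave 513 with HOXD9 siRNA-2 and 701 with control siRNA on 1 probe set (-0.45).

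**Figure D2:**
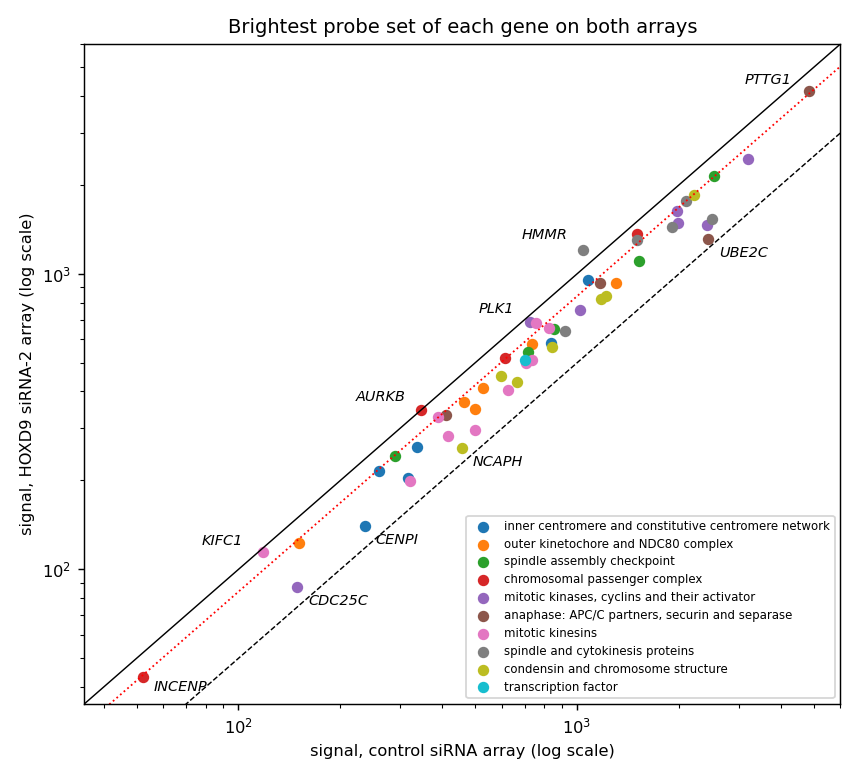
Signal of the brightest probe set of each of the 56 genes on the HOXD9 siRNA-2 array (y axis, log scale) and on the control siRNA array (x axis, log scale), colored by role. The solid line marks equal signals, the dotted line the median ratio of all genes and the dashed line 2-fold lower. HMMR lies above the line of equal signals, AURKB on it, and UBE2C, NCAPH, CDC25C, KIF23 and CENPI nearest to the dashed line.

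The chromosomal passenger complex was the role with the highest median. Its kinase AURKB gave 348 with HOXD9 siRNA-2 and 346 with control siRNA, a log2 ratio of 0.01, and its dimmer probe set gave -0.03. Survivin, BIRC5, gave 1368 with HOXD9 siRNA-2 and 1501 with control siRNA (-0.13), and its 4 probe sets ranged from -0.19 to 0.02. Borealin, CDCA8, gave 520 with HOXD9 siRNA-2 and 613 with control siRNA (-0.24). The scaffold INCENP gave 43.2 with HOXD9 siRNA-2 and 52.2 with control siRNA (-0.27). The 4 subunits had a median of -0.19, against -0.25 for all genes, and after centering they all lay above 0. HMMR, which encodes a spindle protein that is also known as a hyaluronan receptor, was the gene of the set with the highest ratio. It gave 1207 with HOXD9 siRNA-2 and 1042 with control siRNA on its brightest probe set, for a log2 ratio of 0.21, and 870 with HOXD9 siRNA-2 and 780 with control siRNA on the other (0.16), or 0.51 and 0.46 after centering. HMMR was the single gene of the 56 whose probe sets were all higher with HOXD9 siRNA-2.

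At the kinetochore the NDC80 complex was even. NDC80 gave 580 with HOXD9 siRNA-2 and 738 with control siRNA (-0.35). NUF2 gave 410 with HOXD9 siRNA-2 and 529 with control siRNA (-0.37). NUF2 pairs with NDC80 in the arm that binds microtubules, and SPC24 and SPC25 anchor the complex on the centromere side. SPC25 gave 369 with HOXD9 siRNA-2 and 464 with control siRNA (-0.33). SPC24 gave 123 with HOXD9 siRNA-2 and 151 with control siRNA (-0.29). The 4 subunits lay within 0.08 of each other, a range below the spread between probe sets of a gene, and 0.04 to 0.12 below the median of all genes. CENPI, CENPH and CENPK of the constitutive centromere network, on which the outer kinetochore is built, read lower. CENPI gave 140 with HOXD9 siRNA-2 and 236 with control siRNA (-0.75), and its 3 probe sets that passed the filter gave between -0.80 and -0.59. The lowest of these had 15.0 with HOXD9 siRNA-2, within background, and was at least 1.42-fold lower, or 1.15-fold after centering. CENPH gave 203 with HOXD9 siRNA-2 and 317 with control siRNA (-0.64). CENPK gave 584 with HOXD9 siRNA-2 and 839 with control siRNA (-0.52), with 1 probe set each. CENPA, the centromeric histone H3 variant, was nearer to all genes, at 216 with HOXD9 siRNA-2 and 260 with control siRNA (-0.27). CENPM, of the same complex as CENPH, CENPI and CENPK, gave 260 with HOXD9 siRNA-2 and 337 with control siRNA (-0.37). The subunits of that complex thus did not all read as low. CENPN gave 955 with HOXD9 siRNA-2 and 1076 with control siRNA (-0.17). CENPM and CENPN belong to the constitutive centromere network, and CENPN binds CENP-A nucleosomes. The dimmer CENPN probe sets gave -0.42 and -0.49. CENPE, the kinetochore kinesin, gave 349 with HOXD9 siRNA-2 and 501 with control siRNA (-0.52), and CENPF, a large protein of the outer corona, 934 with HOXD9 siRNA-2 and 1304 with control siRNA (-0.48), with -0.61 and -0.64 on its other probe sets.

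The spindle checkpoint genes had a median of -0.38 and a range of 0.23. MAD2L1, whose protein blocks CDC20, gave 1108 with HOXD9 siRNA-2 and 1527 with control siRNA (-0.46), with -0.25 and -0.16 on its other probe sets. The kinase BUB1 gave 546 with HOXD9 siRNA-2 and 716 with control siRNA (-0.39). Its next probe set gave -0.32. A dim BUB1 probe set above the filter gave 17.4 with HOXD9 siRNA-2, within background, and 31.4 with control siRNA. That probe set was at least 1.71-fold lower, or 1.39-fold after centering. BUB1B, a relative of BUB1, gave 653 with HOXD9 siRNA-2 and 853 with control siRNA (-0.38). TTK is the kinase that starts checkpoint signaling at unattached kinetochores. It gave 242 with HOXD9 siRNA-2 and 290 with control siRNA (-0.26). BUB3, the partner of BUB1 and BUB1B, gave 2148 with HOXD9 siRNA-2 and 2531 with control siRNA (-0.24). Of 4 dimmer BUB3 probe sets that passed the filter, 3 lay between -0.19 and 0.00. The dimmest of the 4 gave 17.9 with HOXD9 siRNA-2, within background, and 35.7 with control siRNA. This probe set was at least 1.94-fold lower, or 1.58-fold after centering. No checkpoint gene was lower by more than 1.5-fold on its brightest probe set.

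**Figure D3:**
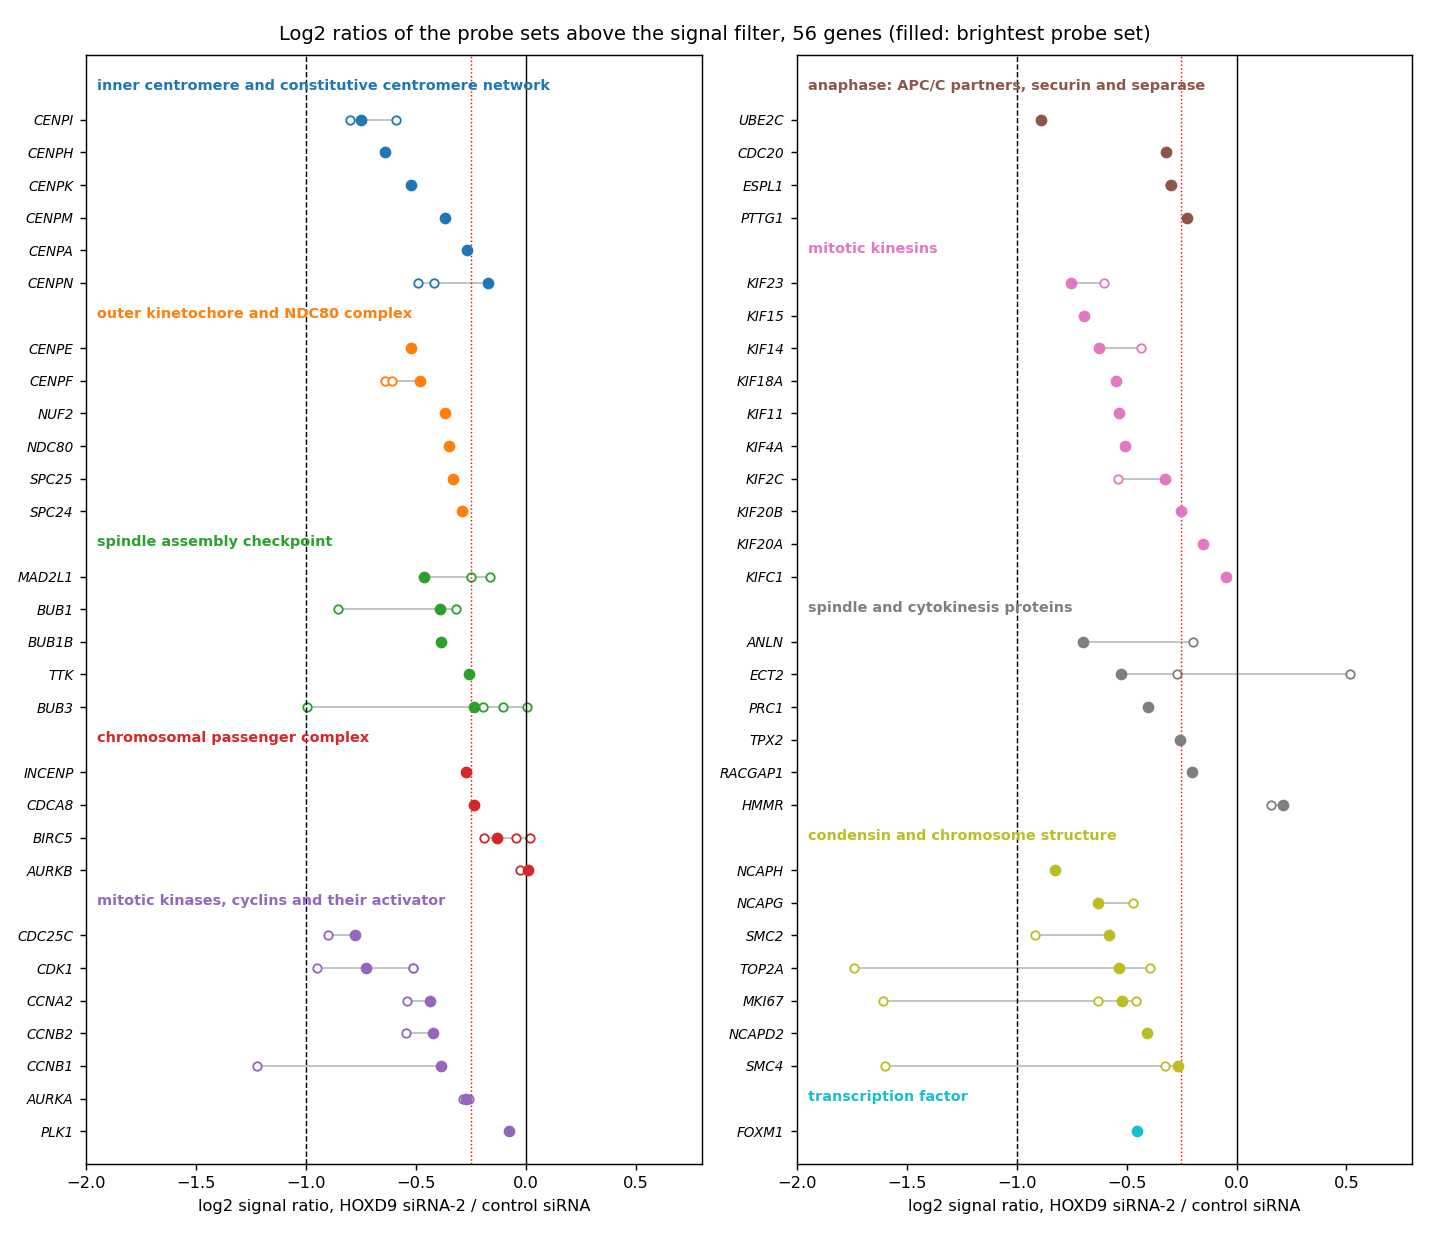
Points give the log2 ratio of HOXD9 siRNA-2 to control siRNA (x axis) for single probe sets above the signal filter, listed by gene (y axis), grouped and colored by role, with the brightest probe set filled. The dashed line marks 2-fold lower, the dotted line the median of all genes, and probe sets whose HOXD9 siRNA-2 signal lay within background are drawn at their measured ratio. Points past the dashed line are open and belong to CCNB1, MKI67, SMC4 and TOP2A.

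The kinesins had a median of -0.52, or -0.22 after centering, and spread over 0.71. KIF23, the motor of centralspindlin, gave 296 with HOXD9 siRNA-2 and 499 with control siRNA (-0.75). KIF15 gave 199 with HOXD9 siRNA-2 and 322 with control siRNA (-0.69). KIF14 gave 405 with HOXD9 siRNA-2 and 624 with control siRNA (-0.63). KIF18A (-0.55), KIF11 (-0.53), which separates spindle poles, and the chromokinesin KIF4A (-0.51) followed. At the other end, KIF20A, a kinesin of late cytokinesis, gave 683 with HOXD9 siRNA-2 and 758 with control siRNA (-0.15). The minus-end motor KIFC1 gave 114 with HOXD9 siRNA-2 and 118 with control siRNA (-0.05). KIF20B stood at -0.25 and the depolymerase KIF2C at -0.33, with -0.54 on its dimmer probe set. Genes of one complex did not always read alike. RACGAP1, the partner of KIF23 in centralspindlin, gave 1305 with HOXD9 siRNA-2 and 1504 with control siRNA (-0.20), so that the pair differed by 0.55. Both are read mainly by 1 bright probe set, and the dimmer KIF23 probe set gave -0.60.

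Anillin, ANLN, the scaffold of the contractile ring, gave 1539 with HOXD9 siRNA-2 and 2498 with control siRNA (-0.70) on its brightest probe set and 1136 with HOXD9 siRNA-2 and 1304 with control siRNA (-0.20) on the other. ECT2, the exchange factor that activates RhoA at the division plane, gave 639 with HOXD9 siRNA-2 and 921 with control siRNA (-0.53). Its other probe sets gave -0.27 and 0.52, so ECT2 had readings on both sides of 0. PRC1, which bundles antiparallel microtubules, gave 1443 with HOXD9 siRNA-2 and 1907 with control siRNA (-0.40), and TPX2, the activator of Aurora A, 1762 with HOXD9 siRNA-2 and 2105 with control siRNA (-0.26).

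Condensin and the other proteins of chromosome structure had the lowest median, -0.53 over 7 genes (-0.23 after centering), and all 7 lay below the median of all genes. NCAPH, the kleisin subunit of condensin I, gave 258 with HOXD9 siRNA-2 and 456 with control siRNA (-0.82). NCAPG gave 429 with HOXD9 siRNA-2 and 665 with control siRNA (-0.63). NCAPH, NCAPG and NCAPD2 are particular to condensin I, whereas SMC2 and SMC4 form the ATPase core of both condensins. SMC2 gave 564 with HOXD9 siRNA-2 and 843 with control siRNA (-0.58). The dimmer SMC2 probe set gave 202 with HOXD9 siRNA-2 and 382 with control siRNA (-0.92, or -0.62 after centering). NCAPD2 gave 450.5 with HOXD9 siRNA-2 and 598 with control siRNA (-0.41). SMC4, the partner of SMC2, gave 1843 with HOXD9 siRNA-2 and 2215 with control siRNA (-0.27). The 5 condensin genes spanned 0.56. A dim SMC4 probe set of a type that can bind several transcripts gave 16.9 with HOXD9 siRNA-2 and 51.3 with control siRNA, at least 2.79-fold lower, or 2.26-fold after centering. The brightest probe sets of CENPA, CENPH, FOXM1, PTTG1 and BUB3, which gave the values above, are also of this type. TOP2A, the topoisomerase that untangles sister chromatids, gave 840 with HOXD9 siRNA-2 and 1216 with control siRNA (-0.53). Its next probe set gave 723 with HOXD9 siRNA-2 and 950 with control siRNA (-0.39). Its dim probe set was at least 2.25-fold lower, at 12.4 with HOXD9 siRNA-2 and 41.3 with control siRNA (1.83-fold after centering). MKI67, the gene of the Ki-67 antigen stained with MIB-1 in tissue, gave 822 with HOXD9 siRNA-2 and 1179 with control siRNA (-0.52). Its other probe sets gave -0.63, -0.46 and -1.61, the last from signals of 93.0 with HOXD9 siRNA-2 and 284 with control siRNA, past 2-fold also after centering (-1.31).

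Probe sets of the same gene did not always read alike. Of 110 probe sets, 100 passed the filter, of which 4 were lower and none higher by more than 2-fold, against 6.69% and 0.615% of all probe sets. By measured ratios 3 were lower after centering, against 2.94% of all probe sets. One of these 3, the dim probe set of TOP2A, is only bounded at 1.83-fold, which leaves 1 of MKI67 and 1 of SMC4 shown past 2-fold. None of the 4 was the brightest of its gene. Of 26 genes with at least 2 probe sets above the filter, 21 were lower on each of them, against 62.8% of the 6081 such genes on the array. On each probe set 18 of the 26 lay below the median of all genes, against 26.2%. In 3 genes, AURKB, BIRC5 and HMMR, every probe set lay above that median, against 20.3%. The range between probe sets exceeded 1 in log2 units in TOP2A, SMC4, MKI67 and ECT2.

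**Figure D4:**
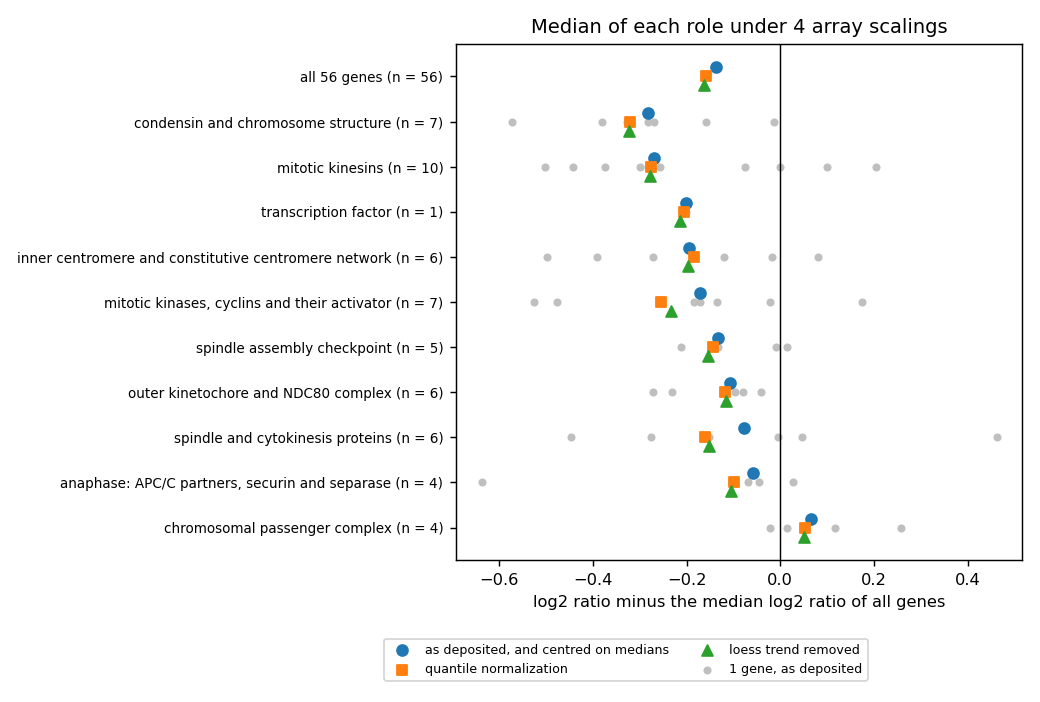
Distance of the median log2 ratio of each role (y axis) from the median log2 ratio of all genes (x axis, log2 units) under each array scaling, with single genes as gray points. Centering moves a role and all genes alike, so the values as deposited and after centering share a symbol. Condensin and chromosome structure lie farthest below at -0.28, and the chromosomal passenger complex is the role above 0, at 0.07.

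Genes of the same processes outside these 56 had like values. Of 22 other kinetochore genes, 21 passed the filter, and 20 of these read lower with HOXD9 siRNA-2, against 83.2% of all genes, with a median of -0.43. None was past 2-fold, against 4.95% of all genes that were lower and 0.516% that were higher. By more than 1.5-fold 6 were lower, against 17.8% of all genes. After centering, 16 of the 21 were below 0, against 43.7%, and none was lower by more than 1.5-fold, against 6.74%. The lowest were KNTC1 at -0.87, MIS12 at -0.85 and SKA1 at -0.73. SKA3, named after its values were seen because it was the exception, read higher, at 0.32. Of 28 other genes of the spindle, G2/M phase and cytokinesis, 27 passed the filter, with a median of -0.45. All 27 were lower, but so were 83.2% of all genes. After centering 17 of the 27 were below 0, against 43.7% of all genes. Among them SGO1, the shugoshin that protects centromeric cohesion, gave 46.5 with HOXD9 siRNA-2 and 101 with control siRNA (-1.12). SGO1 was the one of the 27 past 2-fold as deposited, against 4.95% of all genes, and stood at -0.82 after centering. KIF18B stood at -0.91 and BORA, which helps Aurora A to activate PLK1, at -0.88. The 10 cohesin and cohesin loader genes had a median of -0.36, with MAU2 at -1.01, SMC3 at -0.998 and SMC1A at -0.96, and 9 regulators of the DREAM and MuvB complexes one of -0.33, with RBL1 at -0.90. By comparison, the 23 genes listed for G1/S and for DNA replication had a median of -0.72 (-0.42 after centering). By more than 2-fold 4 of the 23 were lower as deposited, against 4.95% of all genes, and 1 after centering, against 2.31%. By more than 1.5-fold 11 of the 56 mitotic genes and 17 of the 23 were lower as deposited, against 17.8% of all genes, and 1 of the 56 and 5 of the 23 after centering, against 6.74%. No test of that difference is possible with these 2 arrays.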

How the data were processed

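Total RNA from U87 cells was hybridized by the authors to Affymetrix Human Genome U133 Plus 2.0 arrays, 1 per condition. The deposited table holds an intensity on a linear scale for every probe set. The processing notes name GCOS and the methods GeneSpring 7.3.1. How the arrays were scaled is not given in the sources used here, nor are detection calls. Unequal scaling would add the same amount to each log2 ratio. The day of harvest is from the text of the study.

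From these intensities, the log2 ratio of the HOXD9 siRNA-2 array to the control siRNA array was taken for 54613 probe sets, leaving out 62 control probe sets. Names came from the platform annotation, with symbols updated by Entrez number through RefSeq (GRCh38.p14): 41091 probe sets had 1 gene, 1801 several and 11721 none listed, and 41037 were matched. Probe sets with a mean signal of at least 19.8 were kept. As background, 27 Bacillus subtilis probe sets reached 18.4 on the HOXD9 siRNA array and 11.4 on the control siRNA array, and where 1 signal lay at or under 18.4, the difference is a bound against 18.4. Whether these transcripts were added is not stated in the sources used here. The threshold was that of the study, more than 2-fold.

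The members, roles and lists were chosen with earlier results of these data known. All 56 members may be named, and of other lists the genes with the largest ratios. The 1.5-fold threshold and the complexes compared were chosen after the values were seen. No test is possible, and having 1 array per condition limits the precision. The alternatives were centering, quantile normalization, loess (fraction 0.3), no filter, a floor at 18.4, a filter at 75.7 (the 70th percentile of mean signal), leaving out _x_at and _s_at probe sets, and averaging probe sets. The procedure was run on simulated arrays, as deposited and centered. Their changes were larger than any of the 56 genes showed, and their noise was below the spread between probe sets. That run checks the computation, and not whether small ratios can be told from noise. Computations were run in Python 3.11.15 with statsmodels 0.14.6, pandas 2.3.3 and numpy 2.4.6.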

Additional observations from a re-analysis of the deposited data

How the results depend on the processing

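No paired analysis was possible because each condition has 1 array and the result comes from no test. None of the 56 genes was past 2-fold in either direction under centering, quantile normalization, loess, no filter, the 70th percentile filter, a floor at the background or averaging of probe sets. Leaving out _x_at and _s_at probe sets, which keeps 41 of the 56, gave 1 gene lower by more than 2-fold, CCNB1 at -1.22. This setting also moved ECT2 to 0.52, ANLN to -0.20 and BUB3 to -0.99, since another probe set then reads the gene. The probe sets lower by more than 2-fold numbered 4 as deposited, and 2 with the 70th percentile filter and 2 without _x_at and _s_at probe sets, both of which test fewer probe sets. The number of genes lower by more than 1.5-fold was 11 as deposited and 1 with each array centered on its median, 1 after quantile normalization and 1 after loess, because these settings take out the overall shift. The median was -0.39 as deposited, -0.09 after centering, -0.13 after quantile normalization and -0.14 after loess. The distance to the median of all genes ranged from -0.16 to -0.12 over the 8 alternatives, of which centering cannot change it. Signals near the background of 18.4 give bounds only, and without replicates the noise of these arrays is not known.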

Other observations

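The 10 probe sets of these genes that did not pass the signal filter belong to CENPI, CENPN, CCNB2, CDC25C, KIF20B, SPC24, BUB1 and BUB3. On 9 of them both signals lay within the background of 18.4, so that no fold difference is given. Among these, a CCNB2 probe set gave 7.22 with HOXD9 siRNA-2 and 1.38 with control siRNA, a measured ratio far from that of the brightest CCNB2 probe set (-0.42). A BUB1 probe set with signals of 11.7 with HOXD9 siRNA-2 and 19.1 with control siRNA was the exception and was at least 1.04-fold lower as deposited. After centering no fold difference could be bounded for it.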
